A study of Homo sapiens with 8 samples.

Results

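The miR-15/16 seed family is a group of microRNAs (miRNAs) that share the bases with which they recognise messenger RNAs. Its members were taken from the count table by a list of names from the miR-15, miR-16, miR-195, miR-424, miR-497 and miR-503 hairpins, and all 10 names were among the 3112 miRNAs listed, of which 1482 are known and 1630 are predicted. The list leaves out 5 products of these hairpins that the table also holds, miR-15a-3p, miR-16-1-3p, miR-195-3p, miR-497-3p and miR-503-3p, and these are described as other arms. The members are hsa-miR-15a-5p, hsa-miR-15b-5p, hsa-miR-15b-3p, hsa-miR-16-5p, hsa-miR-16-2-3p, hsa-miR-195-5p, hsa-miR-424-5p, hsa-miR-424-3p, hsa-miR-497-5p and hsa-miR-503-5p. Small RNA was sequenced from 786-O cells, an established line of human clear cell renal cell carcinoma, in 4 negative control (NC) libraries and 4 circSOD2-sh libraries, in which an shRNA was directed at circSOD2, a circular RNA of the SOD2 gene. The labels describe plasmids brought in with Lipofectamine and harvest after 48 h for both groups, whereas the methods of the study describe lentivirus and puromycin. Which shRNA these cells carried is not named, and how far circSOD2 itself was lowered was not measured here. The comparison asks which miRNAs differ once circSOD2 is targeted. Nothing in the labels says whether the libraries of a group came from separate cultures, so the p-values measure the spread between these libraries, which may be technical.

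A miRNA is cut from a hairpin that has a 5p and a 3p arm. Usually one arm is kept as the guide strand and the other is largely degraded, and the seed at the start of the guide pairs with target messages. In this family the 5p arm is the usual guide. The family is known for restraining the cell cycle through targets such as cyclins D1 and E1, and for targeting BCL2, and the loss of the miR-15a and miR-16-1 pair in chronic lymphocytic leukaemia is its best known link to cancer.

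Sequences of all 10 members were found in RefSeq (GRCh38.p14). The 5p members are shown here because they differ in what follows although they begin alike, with bases 2 to 8, the seed, in capitals.
hsa-miR-15a-5p: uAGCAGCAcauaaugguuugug
hsa-miR-15b-5p: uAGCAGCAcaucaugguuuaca
hsa-miR-16-5p: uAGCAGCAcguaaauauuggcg
hsa-miR-195-5p: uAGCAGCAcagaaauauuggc
hsa-miR-424-5p: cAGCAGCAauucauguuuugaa
hsa-miR-497-5p: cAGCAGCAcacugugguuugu
hsa-miR-503-5p: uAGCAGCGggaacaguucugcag
The first 6 share the seed AGCAGCA, and miR-503-5p carries AGCAGCG. In an ungapped comparison from the first base, miR-16-5p and miR-195-5p differed at 2 of 21 positions and miR-15a-5p and miR-15b-5p at 4 of 22. How many mismatches the counting of the authors allowed is not given in the sources used here, so reads of such close members could have been split between them.

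The 3p arms have other seeds. They are shown because the arms of one hairpin moved apart in these libraries.
hsa-miR-15b-3p: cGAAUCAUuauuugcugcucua
hsa-miR-424-3p: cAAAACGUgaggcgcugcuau
hsa-miR-15a-3p: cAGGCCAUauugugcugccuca
hsa-miR-16-2-3p: cCAAUAUUacugugcugcuuua
hsa-miR-195-3p: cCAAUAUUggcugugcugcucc
Here miR-16-2-3p and miR-195-3p share a seed, CAAUAUU, and the others have a seed of their own.

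The hairpins lie in 4 pairs on GRCh38 (GENCODE release 29). MIR15A (chr13:50049119-50049201) and MIR16-1 (chr13:50048973-50049061) lie 57 bases apart on the minus strand within DLEU2, a long non-coding RNA gene, where MIR15A overlaps an exon of 2 of the 8 transcripts and MIR16-1 overlaps none. MIR15B (chr3:160404588-160404685) and MIR16-2 (chr3:160404745-160404825) lie 59 bases apart on the plus strand in an intron of SMC4, which encodes a condensin subunit, and overlap no exon of its 27 transcripts. MIR195 (chr17:7017615-7017701) and MIR497 (chr17:7017911-7018022) lie 209 bases apart on the minus strand within MIR497HG, and each overlaps an exon of 1 of its 2 transcripts. MIR424 (chrX:134546614-134546711) and MIR503 (chrX:134546328-134546398) lie 215 bases apart on the minus strand. MIR503 is intronic in MIR503HG, and MIR424 overlaps an edge of that gene, on the side of higher coordinates, and exons of 3 of its 5 transcripts. The mature miR-16-5p is the same from MIR16-1 and MIR16-2, so its counts belong to both loci and cannot be assigned to either.

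The listed counts summed to between 6386872 and 9245044 in the NC libraries and to between 3743860 and 4208276 in the circSOD2-sh libraries. A predicted miRNA numbered 455 held 54.3% to 59.1% of the NC counts and 0.0628% to 0.105% of the circSOD2-sh counts, so the scaling between the groups matters for every level. Counts were scaled by the trimmed mean of M-values (TMM) and are given as normalized CPM, which is counts scaled to a common library size. The median log2 fold change of the 895 miRNAs tested (463 known and 432 predicted) was -0.0022 with TMM and 0.96 with library totals. Upper-quartile factors gave 0.83, RLE size factors -0.05 and totals of known miRNAs -0.35. All fold changes here are circSOD2-sh against NC. Members are therefore also described by their distance from that median and by ratios of counts within a library.

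A pair of libraries stood apart from the others of their groups in markers of other cells, and what part this had in the results was not tested except by leaving them out. The sum of 5 neural markers was 35.8 to 46.3 normalized CPM in circSOD2-sh replicates 1, 3 and 4 and 4351 in replicate 2, where miR-124-3p, the most abundant of them, reached 3214 against 1.87 to 3.01. For smooth muscle and stroma the sum of 4 markers was 7.38 to 8.69 in NC replicates 1 to 3 and 557 in NC replicate 4, with miR-143-3p at 495 against 6.46 to 7.84. The 4 kidney tubule markers summed to 1064 in NC replicate 4 against 375 to 399, led by miR-192-5p. In circSOD2-sh their sums were 300 to 349 with TMM, below every NC library, and this order depends on the scaling. Of them miR-204-5p went the other way, with 0 to 4 NC counts and 7 to 164 circSOD2-sh counts. The 4 leukocyte markers summed to 17.1 in NC replicate 4 and 14.6 in circSOD2-sh replicate 2, and to between 1.19 and 3.21 in the other libraries. Of these, miR-142-5p had 71 counts in NC replicate 4 and 46 in circSOD2-sh replicate 2 against 4 to 15 elsewhere, and miR-150-5p had 36 in circSOD2-sh replicate 2 against at most 2, while miR-142-3p and miR-223-3p had at most 3 counts in each library. Of the 3 markers of clear cell renal carcinoma, miR-21-5p was the most abundant, at 108130 to 154410 normalized CPM over the 8 libraries, with overlap of the groups. With TMM the hypoxia miRNA miR-210-3p was at 19.9 to 27.0 in NC and 13.9 to 19.8 in circSOD2-sh. These groups did not overlap, like those of 60.3% of all miRNAs tested, but the nearest libraries were at 19.93 and 19.75. For miR-155-5p the levels were 12.1 to 15.8 and 8.83 to 12.3, with overlap. Marker levels are given with TMM only, and the order of the groups in them depends on the scaling. More cells of a type and more of its RNA per cell cannot be told apart in such sums. Where a named miRNA gains or loses its call without NC replicate 4 and circSOD2-sh replicate 2, both values are given.

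All 10 members passed the low-count filter. By the quasi-likelihood test of edgeR with Benjamini-Hochberg adjustment over the 895 miRNAs, 7 of the 10 differed at an adjusted p under 0.05, against 65.7% of all miRNAs tested and 55.5% of the 463 known ones. Of these, 2 were higher (33.3% of all tested) and 5 were lower (32.4%). The share is near that of the whole table, so the count says nothing particular about the family. Without NC replicate 4 and circSOD2-sh replicate 2, 9 of the 10 members and 659 of 945 miRNAs tested were called. The median log2 fold change was -0.47 over the members and -0.0022 over all tested. With library totals the median of the members was 0.49, below the 0.96 of all tested, and 9 of the 10 members were then called higher and 1 lower, against 613 and 158 of the 895 miRNAs tested. The split of all calls also moved with the scaling, from 50.7% higher with TMM to 79.5% with library totals, 78.1% with upper-quartile factors and 34.7% with totals of known miRNAs. In normalized CPM the groups did not overlap for 7 of the 10 members, against 60.3% of all miRNAs tested.

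**Figure D1:**
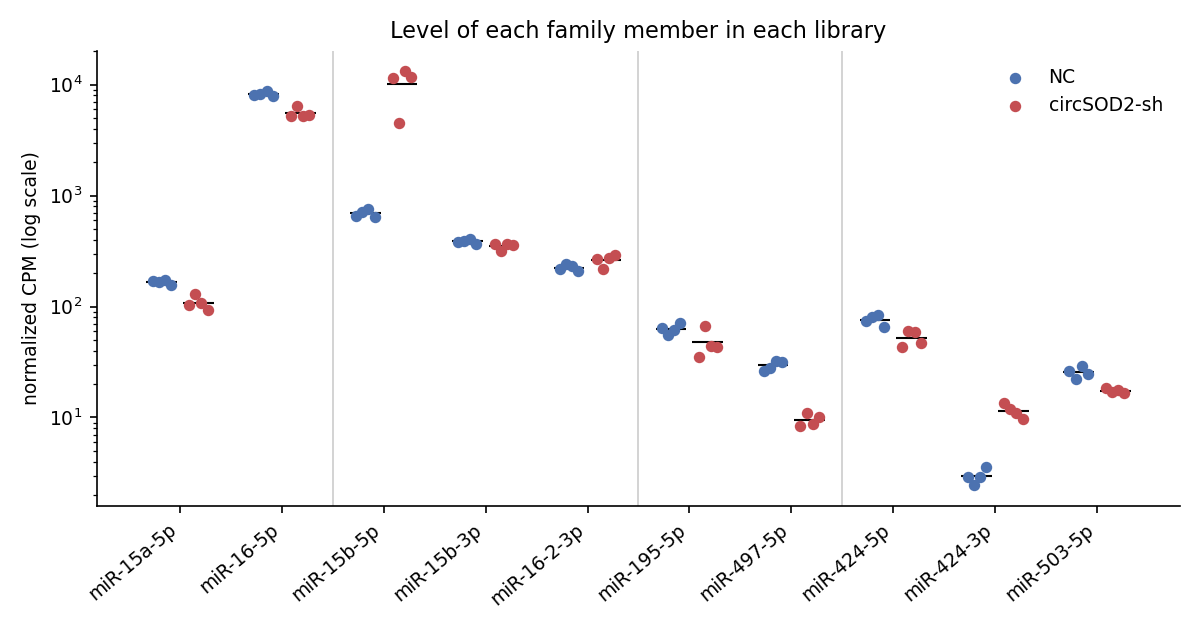
Normalized CPM (log axis) of each member in the 4 NC (blue) and 4 circSOD2-sh (red) libraries, with a line at each group mean. Thin vertical lines part the hairpin pairs, with miR-16-5p drawn beside miR-15a-5p. The red points of miR-15b-5p, at 4482 to 13143, all lie above its NC points, at 637 to 762, while its 3p arm overlaps between the groups.

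The largest change among the members was in the pair on chromosome 3. Counts of miR-15b-5p were 4248, 4610, 4470 and 2837 in the NC libraries and 67885, 25410, 65566 and 66117 in the circSOD2-sh libraries. Every circSOD2-sh library lay above every NC library, and circSOD2-sh replicate 2, with the high neural markers, was the lowest of its group. Mean levels were 689.7 ± 57.2 normalized CPM for NC and 10225 ± 3895 for circSOD2-sh (SD, n = 4), 14.8 times the NC mean. The log2 fold change was 3.89 (standard error, SE, 0.31, adjusted p = 1.68e-06 in edgeR). Without circSOD2-sh replicate 2 it was 4.03, and it was positive under each scaling tried, from 3.56 to 4.86. Among the 463 known miRNAs tested this was the 20th largest rise.

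The 3p products of this locus, miR-15b-3p and miR-16-2-3p, were not called with TMM. Other scalings called miR-15b-3p in either direction and miR-16-2-3p only higher. Counts of miR-15b-3p, from the same hairpin, were 2514, 2544, 2373 and 1639 in NC and 2177, 1786, 1835 and 2011 in circSOD2-sh. Its groups overlapped, at 387 ± 15.1 normalized CPM in NC and 352 ± 25.6 in circSOD2-sh (SD, n = 4). The log2 fold change was -0.14 (SE 0.08, adjusted p = 0.176 in edgeR). It was called higher with library totals, at 0.83 (adjusted p = 2.38e-05 in edgeR), and lower with totals of known miRNAs, at -0.48 (adjusted p = 0.00177 in edgeR). Without NC replicate 4 and circSOD2-sh replicate 2 it passed the threshold, at -0.21 (adjusted p = 0.0424 in edgeR). It also passed without circSOD2-sh replicate 1 alone (-0.28) and without circSOD2-sh replicate 3 alone (-0.31). The neighbouring miR-16-2-3p had counts of 1413, 1566, 1348 and 926 in NC and of 1580, 1236, 1371 and 1631 in circSOD2-sh. These groups overlapped too, with 224 ± 14.5 normalized CPM in NC and 263 ± 31.2 in circSOD2-sh (SD, n = 4). Its log2 fold change was 0.23 (SE 0.11, adjusted p = 0.0819 in edgeR), and it was called higher with library totals, at 1.20 (adjusted p = 7.96e-06 in edgeR), and not called with totals of known miRNAs, at -0.11.

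In the NC libraries miR-16-5p was the most abundant member. Its counts were 53132, 53140, 51594 and 35278 in NC and 30452, 36184, 25773 and 29883 in circSOD2-sh. All circSOD2-sh libraries were lower than all NC libraries in normalized CPM, with circSOD2-sh replicate 2 the highest of its group. The level was 8257 ± 373 normalized CPM in NC and 5507 ± 587 in circSOD2-sh (SD, n = 4). The log2 fold change was -0.58 (SE 0.08, adjusted p = 1.57e-04 in edgeR) with TMM and 0.38 with library totals, so the direction depends on the scaling.

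On chromosome 13, miR-15a-5p was lower in circSOD2-sh with TMM. It had counts of 1097, 1090, 1018 and 700 in NC and of 607, 729, 537 and 521 in circSOD2-sh. In normalized CPM no circSOD2-sh library reached the NC range, at 167 ± 6.80 in NC and 108 ± 15.1 in circSOD2-sh (SD, n = 4). With TMM the log2 fold change was -0.63 (SE 0.11, adjusted p = 9.04e-04 in edgeR), and with library totals it was 0.34. The other arm of its hairpin, miR-15a-3p, went the opposite way with TMM, while with library totals both arms were higher. Counts of miR-15a-3p were 31, 32, 29 and 36 in NC and 90, 91, 74 and 103 in circSOD2-sh. For this arm the log2 fold change was 1.52 (SE 0.20, adjusted p = 8.98e-05 in edgeR), and it was positive under each scaling tried. The 3p arm of MIR16-1, miR-16-1-3p, was scarce in all libraries, at 13 to 28 counts, and its groups overlapped.

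On chromosome 17 the paired hairpins gave 5p products with unequal changes. Counts of miR-497-5p were 171, 183, 188 and 140 in NC and 49, 62, 44 and 57 in circSOD2-sh. Every circSOD2-sh library was below every NC library, both in counts and in normalized CPM, at 29.5 ± 2.76 in NC and 9.55 ± 1.20 in circSOD2-sh (SD, n = 4). The log2 fold change of miR-497-5p was -1.62 (SE 0.15, adjusted p = 5.46e-06 in edgeR). It was the only member that was lower under each scaling tried, with -0.66 under library totals (adjusted p = 0.00254 in edgeR).

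Its neighbour miR-195-5p had counts of 414, 363, 358 and 319 in NC and of 208, 382, 221 and 243 in circSOD2-sh. Here circSOD2-sh replicate 2 lay within the NC range and the other circSOD2-sh libraries below it. The level was 63.0 ± 6.58 normalized CPM in NC and 47.5 ± 13.8 in circSOD2-sh (SD, n = 4), with a log2 fold change of -0.40 (SE 0.19, adjusted p = 0.0883 in edgeR). Without NC replicate 4 and circSOD2-sh replicate 2 the value was -0.66 (adjusted p = 5.61e-04 in edgeR). The call was also gained without circSOD2-sh replicate 3 alone, at -0.53 (adjusted p = 0.0483 in edgeR). In all 8 libraries, miR-195-5p was called lower with RLE size factors (-0.46) and with totals of known miRNAs (-0.76). It was called higher with library totals (0.55) and with upper-quartile factors (0.43). Of the 3p arms, miR-195-3p had 5 to 12 NC counts and 12 to 19 circSOD2-sh counts, with a log2 fold change of 0.79 (adjusted p = 0.0447 in edgeR). This call was lost in 7 of the 8 fits without a single library and, at 0.56 (adjusted p = 0.184 in edgeR), without NC replicate 4 and circSOD2-sh replicate 2. With at most 2 counts in any library, miR-497-3p was not tested.

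On the X chromosome the arms of MIR424 moved in opposite directions with TMM. Counts of miR-424-5p were 481, 521, 489 and 294 in NC and 253, 339, 297 and 265 in circSOD2-sh. Its groups did not overlap in normalized CPM, at 75.8 ± 7.64 in NC and 52.3 ± 8.62 in circSOD2-sh (SD, n = 4). The log2 fold change was -0.53 (SE 0.14, adjusted p = 0.00785 in edgeR) with TMM and 0.42 with library totals. Counts of miR-424-3p were 19, 16, 17 and 16 in NC and 79, 68, 55 and 54 in circSOD2-sh, so that each circSOD2-sh library was above each NC library. The level of this arm was 2.97 ± 0.468 normalized CPM in NC and 11.5 ± 1.61 in circSOD2-sh (SD, n = 4). Its log2 fold change was 1.96 (SE 0.18, adjusted p = 5.68e-06 in edgeR), and it was positive under each scaling tried.

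The neighbour of MIR424 gave miR-503-5p, with 173, 146, 170 and 109 counts in NC and 108, 97, 88 and 94 in circSOD2-sh. In normalized CPM the groups did not overlap, at 25.6 ± 2.79 in NC and 17.4 ± 0.707 in circSOD2-sh (SD, n = 4). Its log2 fold change of -0.55 (SE 0.13, adjusted p = 0.00404 in edgeR) became 0.41 with library totals. Its other arm, miR-503-3p, had at most 1 count in any library. Of 7 products of the hairpins MIR542, MIR450A2, MIR450A1 and MIR450B, which follow on the same strand (MIR542 at chrX:134541341-134541437), 3 were tested and 1 was called with TMM, against 65.7% of all miRNAs tested. This was miR-450a-5p, with 421 to 530 NC counts against 254 to 295 and a log2 fold change of -0.72 (SE 0.10, adjusted p = 1.80e-04 in edgeR), which was 0.25 and not called (adjusted p = 0.0542 in edgeR) with library totals. The log2 fold changes of the other 2 were -0.25 for miR-450b-5p and 0.38 for miR-542-3p, with adjusted p of 0.109 and 0.312 in edgeR. With library totals both were called higher, at 0.71 (adjusted p = 3.89e-04 in edgeR) and 1.34 (adjusted p = 0.0018 in edgeR), and without circSOD2-sh replicate 2 the TMM value of miR-542-3p was 0.05. Without NC replicate 4 and circSOD2-sh replicate 2, miR-450b-5p was called too, at -0.41 (adjusted p = 0.0158 in edgeR), which makes 2 of the 3. It was also called without circSOD2-sh replicate 2 alone (-0.38) and without circSOD2-sh replicate 3 alone (-0.49).

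A scaling shifts all miRNAs by about the same amount, so the distance of a member from the median of all miRNAs tested is nearly fixed by construction and says nothing on its direction. Under the 5 scalings drawn in the plot of scalings this log2 distance was -0.63 to -0.62 for miR-15a-5p and -0.59 to -0.58 for miR-16-5p. For the products of chromosome 3 it was -0.13 to -0.12 for miR-15b-3p and 0.23 to 0.25 for miR-16-2-3p. It was -0.42 to -0.40 for miR-195-5p, -0.54 to -0.53 for miR-424-5p and -0.55 for miR-503-5p.

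**Figure D2:**
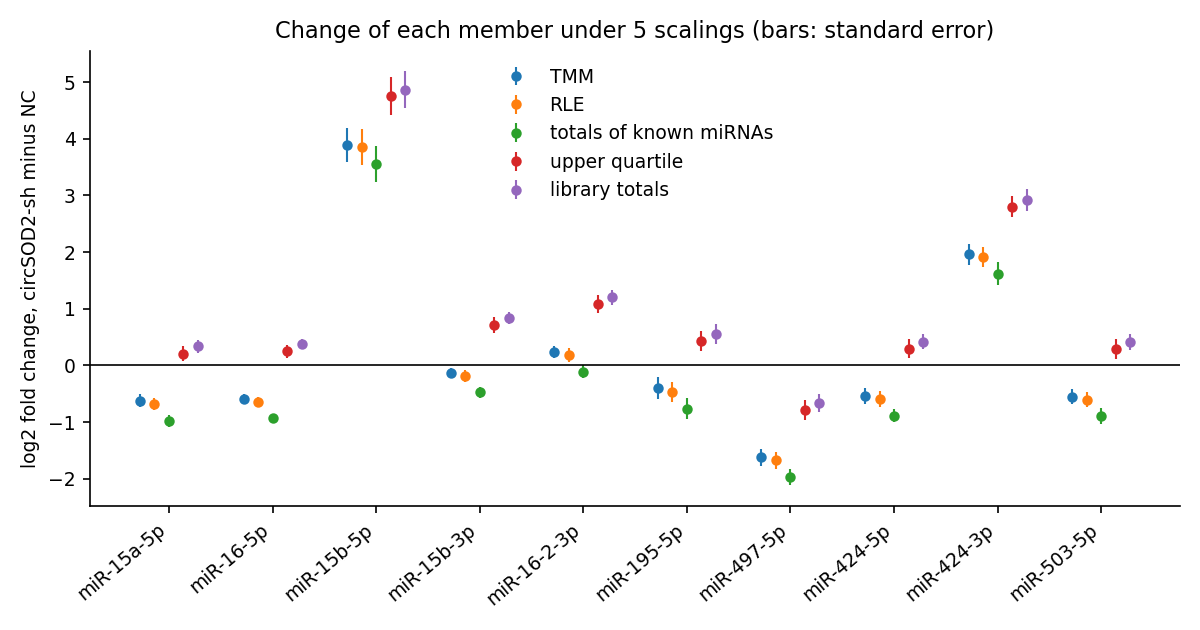
Log2 fold change of each member, circSOD2-sh minus NC, under 5 scalings of the counts, with bars of 1 standard error from edgeR. Library totals and upper-quartile factors shift all members upward by about the same amount. This turns the small negative values of miR-15a-5p, miR-15b-3p, miR-16-5p, miR-195-5p, miR-424-5p and miR-503-5p positive. It leaves miR-15b-5p and miR-424-3p above 0 and miR-497-5p below it.

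Mature miRNAs are of nearly equal length, here 21 to 23 bases for the members, and a read covers the whole molecule, so members can be set side by side as shares of counts, although ligation and amplification may favour some sequences. Among the 7 members of the 5p arm, miR-16-5p held 88.5% to 89.0% of the counts in each NC library and miR-15b-5p 7.11% to 7.68%. In the circSOD2-sh libraries the order was turned in replicates 1, 3 and 4, where miR-15b-5p held 68.2%, 70.9% and 68.0% and miR-16-5p 30.6%, 27.9% and 30.8%. In circSOD2-sh replicate 2 miR-16-5p was ahead, with 57.3% against 40.2%. After these came miR-15a-5p, miR-424-5p and miR-195-5p in mean share in NC, at 1.79 ± 0.0424%, 0.813 ± 0.0544% and 0.679 ± 0.0923% (SD, n = 4). The ranges of miR-195-5p, at 0.604% to 0.804%, and miR-424-5p, at 0.741% to 0.868%, overlapped in NC, as did those of miR-497-5p and miR-503-5p, at 0.286% to 0.353% and 0.243% to 0.292%.

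**Figure D3:**
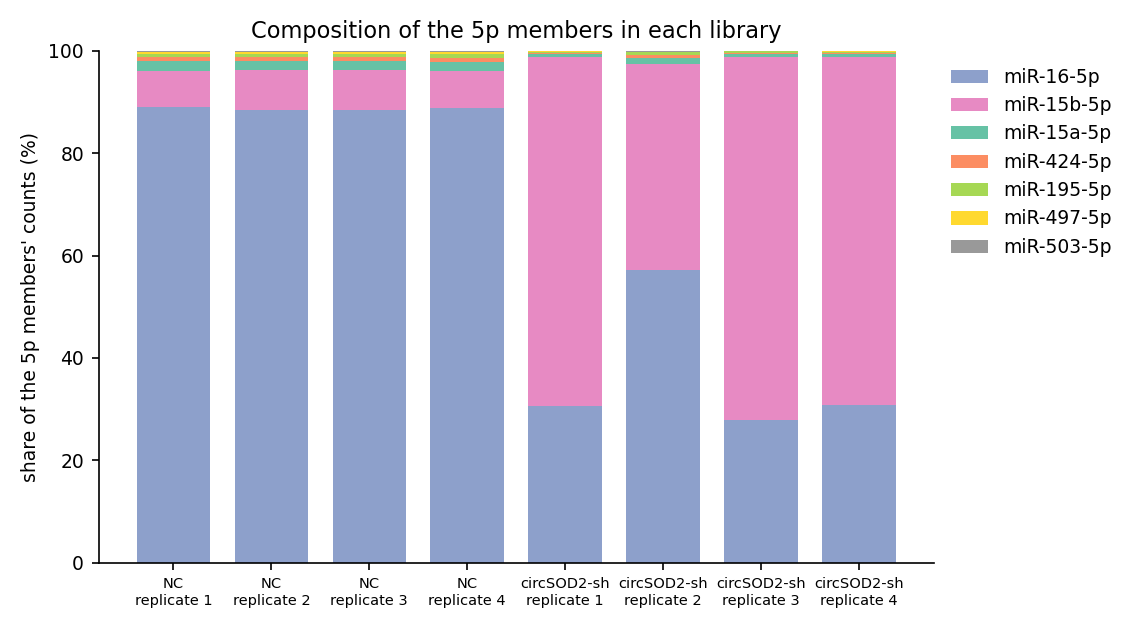
Share of each member in the counts of the 7 members of the 5p arm, in percent, stacked for each of the 8 libraries. The NC bars are nearly alike with miR-16-5p at 88.5% to 89.0%, and miR-15b-5p takes 40.2% to 70.9% in the circSOD2-sh bars.

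Rank by counts among the 1482 known miRNAs of a library is moved by no scaling, though it depends on the miRNAs of similar abundance. In rank, miR-15b-5p was at ranks 58 to 64 in NC and at ranks 9, 26, 9 and 11 in circSOD2-sh replicates 1 to 4. The rank of miR-16-5p was 14 to 15 in NC and 21 to 26 in circSOD2-sh, and that of miR-497-5p 187 to 200 and 275 to 313. For miR-15a-5p the ranks were 106 to 109 in NC and 130 to 133 in circSOD2-sh, for miR-424-5p 140 to 152 and 159 to 174, for miR-503-5p 194 to 216 and 221 to 266, and for miR-424-3p 364 to 396 and 254 to 307. Ranks also separated the groups for miR-195-5p, at 146 to 155 and 169 to 183, and miR-15b-3p, at 72 to 78 and 81 to 94, which overlapped in normalized CPM. What share of all known miRNAs had ranks apart in this way was not computed, so the ranks are only described. For miR-16-2-3p, at 94 to 100 and 87 to 107, they overlapped. All 7 members of the 5p arm together held 1.68% to 1.78% of the counts of known miRNAs in NC, and 2.64%, 1.56%, 2.57% and 2.59% in circSOD2-sh replicates 1 to 4. Their summed level was 9307 ± 438 normalized CPM in NC and 15968 ± 3289 in circSOD2-sh (SD, n = 4). Without miR-15b-5p the other 6 summed to 8617 ± 385 in NC and 5742 ± 619 in circSOD2-sh (SD, n = 4). Thus with TMM the sum was higher in circSOD2-sh with miR-15b-5p and lower without it.

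Dividing the counts of the 5p arm by those of the 3p arm compares the products of a single precursor within a library. Both arms were tested for 117 hairpins, and limma on the log2 ratio, with 0.5 normalized CPM added to each arm, called 68 of them (58.1%) at an adjusted p under 0.05. All 4 family hairpins with both arms tested (miR-15a, miR-15b, miR-195 and miR-424) were called. The 5p arm gained in 1 of them (30.8% of the 117 gained 5p) and the 3p arm in 3 (27.4%).

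For miR-15b there were 1.69, 1.81, 1.88 and 1.73 counts of the 5p arm for each of the 3p arm in the NC libraries, and 31.2, 14.2, 35.7 and 32.9 in the circSOD2-sh libraries. The NC libraries were close together and all circSOD2-sh libraries lay far above them, with circSOD2-sh replicate 2 the lowest. The log2 ratio rose by 3.92 (SE 0.27, adjusted p = 1.32e-06 in limma), the 2nd largest gain of the 5p arm among the 117 hairpins, and by 4.21 without NC replicate 4 and circSOD2-sh replicate 2.

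The miR-15a hairpin, whose 5p product differs from that of miR-15b at 4 positions, went the other way. Its ratios were 35.4, 34.1, 35.1 and 19.4 in NC and 6.74, 8.01, 7.26 and 5.06 in circSOD2-sh. The groups did not overlap, and NC replicate 4 was the lowest of its group. The log2 ratio changed by -2.09 (SE 0.22, adjusted p = 2.25e-05 in limma), and by -2.37 without NC replicate 4 and circSOD2-sh replicate 2.

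The ratios of miR-424 were 25.3, 32.6, 28.8 and 18.4 in NC and 3.20, 4.99, 5.40 and 4.91 in circSOD2-sh, again without overlap. The change was -2.33 on the log2 scale (SE 0.21, adjusted p = 8.51e-06 in limma). For miR-195 the ratios were 59.1, 30.3, 29.8 and 63.8 in NC and 17.3, 23.9, 11.6 and 20.3 in circSOD2-sh. Here the groups were apart by less and the NC libraries differed among themselves, with 5 to 12 counts of the 3p arm behind each NC ratio. The log2 ratio changed by -1.10 (SE 0.27, adjusted p = 0.00686 in limma). The CPM added before the test is scaled by TMM and weighs most on scarce arms such as miR-195-3p, and with 2 normalized CPM added the change of miR-195 was -0.84. For miR-16-5p, which has a pair of hairpins, the ratio to a 3p arm is only described. There were 33.9 to 38.3 counts of miR-16-5p for each of miR-16-2-3p in NC, and 19.3, 29.3, 18.8 and 18.3 in circSOD2-sh, without overlap. For each count of the scarce miR-16-1-3p there were 2043.5, 3125.9, 2715.5 and 2204.9 in NC and 2342.5, 1292.3, 1227.3 and 1867.7 in circSOD2-sh, and these groups overlapped.

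**Figure D4:**
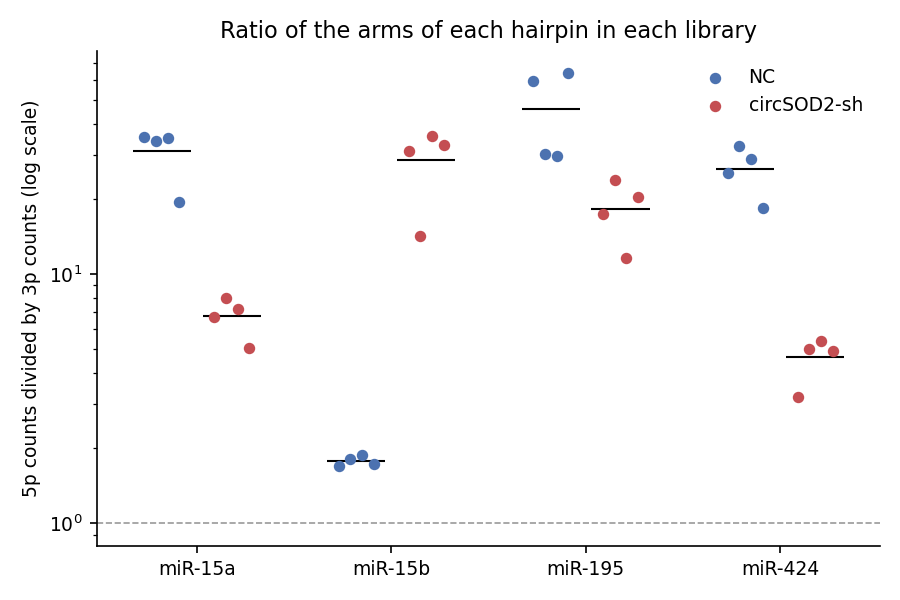
Counts of the 5p arm divided by counts of the 3p arm (log axis) for the 4 family hairpins with both arms tested, in the 4 NC (blue) and 4 circSOD2-sh (red) libraries, with a line at each group mean and a dashed line at equal arms. The ratio of miR-15b is higher in each circSOD2-sh library, at 14.2 to 35.7 against 1.69 to 1.88, and those of miR-15a, miR-195 and miR-424 are lower.

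Ratios between members within a library show whether products of a cluster, or of different clusters, moved alike. In 4 of the 9 ratios compared the groups did not overlap, against 53451 (50%) of the 106953 ratios between all pairs of known miRNAs tested. For each of the 4 the exact two-sided permutation test gave p = 0.0286, the smallest that 4 libraries against 4 allow, and Benjamini-Hochberg adjustment over the 9 ratios gave 0.0643, so none passed 0.05 after adjustment. Each of these 4 ratios holds miR-15b-5p or miR-497-5p.

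As a percent of the counts of miR-16-5p, miR-15b-5p was at 8.00, 8.68, 8.66 and 8.04 in NC and at 222.9, 70.2, 254 and 221 in circSOD2-sh. So miR-15b-5p passed miR-16-5p in 3 of the 4 circSOD2-sh libraries and in none of the NC libraries. The mean log2 ratio was -3.58 ± 0.07 in NC and 0.78 ± 0.87 in circSOD2-sh (SD, n = 4), a change of 4.37. Between the paralogues, miR-15a-5p was at 22.8% to 25.8% of miR-15b-5p in NC and at 0.788% to 2.87% in circSOD2-sh, a change of -4.41 on the log2 scale.

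The ratio of miR-497-5p to miR-16-5p was lower in the circSOD2-sh libraries. It was 0.322%, 0.344%, 0.364% and 0.397% in NC and 0.161%, 0.171%, 0.171% and 0.191% in circSOD2-sh, with no overlap and a log2 change of -1.03. Against its own neighbour, miR-497-5p was at 41.3%, 50.4%, 52.5% and 43.9% of miR-195-5p in NC and at 23.6%, 16.2%, 19.9% and 23.5% in circSOD2-sh. No circSOD2-sh library reached the NC range, and the log2 change was -1.18.

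In the other 5 ratios the groups overlapped. For miR-15a-5p the percent of miR-16-5p was 2.06, 2.05, 1.97 and 1.98 in NC and 1.99, 2.01, 2.08 and 1.74 in circSOD2-sh, and the log2 ratio was -5.63 ± 0.03 in NC and -5.68 ± 0.11 in circSOD2-sh (SD, n = 4; exact permutation test, p = 0.657). The difference of -0.05 is smaller than the spread within circSOD2-sh. The differences of the log2 ratio to miR-16-5p were 0.15 for miR-195-5p, 0.05 for miR-424-5p and 0.04 for miR-503-5p, with exact permutation p of 0.429, 0.8 and 0.657. On the X chromosome, miR-503-5p was at 36.0%, 28.0%, 34.8% and 37.1% of its neighbour miR-424-5p in NC and at 42.7%, 28.6%, 29.6% and 35.5% in circSOD2-sh. The mean log2 ratio was -1.56 ± 0.18 in NC and -1.57 ± 0.27 in circSOD2-sh (SD, n = 4; exact permutation test, p = 1). With 4 libraries a group, differences within these spreads were not detectable, which does not show that the members changed alike.

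**Figure D5:**
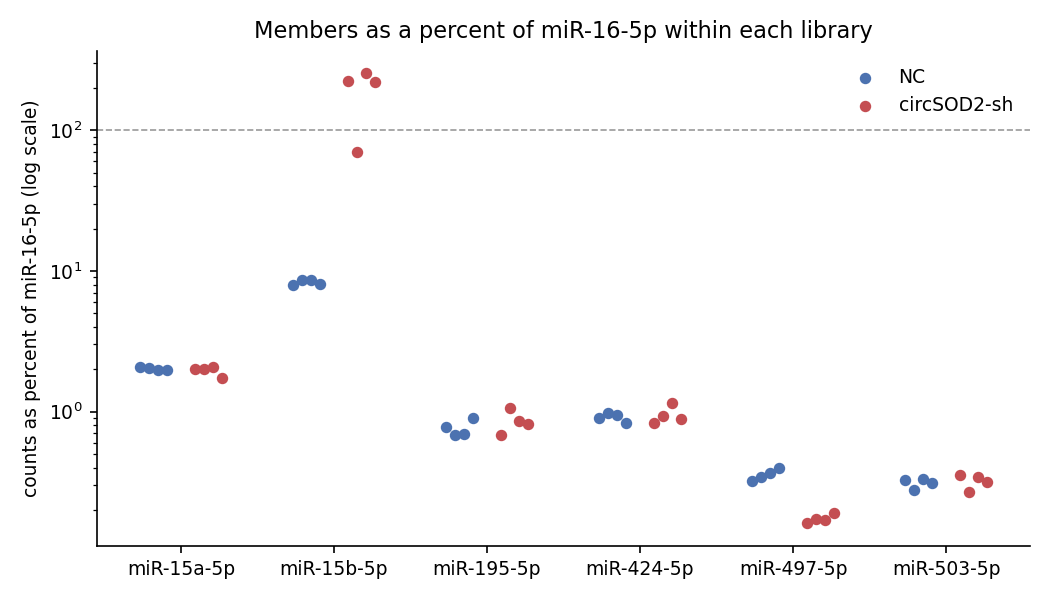
Counts of 6 members of the 5p arm as a percent of the counts of miR-16-5p (log axis) in the 4 NC (blue) and 4 circSOD2-sh (red) libraries, with a dashed line at 100 percent. The groups lie apart for miR-15b-5p, at 8.00 to 8.68 against 70.2 to 254, and for miR-497-5p, at 0.322 to 0.397 against 0.161 to 0.191, and overlap for the others.

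Of 5 other miRNAs looked up for a shared or shifted seed, 3 were listed in the count table. With the seed GCAGCAU, shifted by a base, miR-103a-3p was at 2593 ± 127 normalized CPM in NC and 3414 ± 158 in circSOD2-sh (SD, n = 4). The log2 fold change was 0.40 (SE 0.07, adjusted p = 5.26e-04 in edgeR), and it was 0.05 (adjusted p = 0.443 in edgeR) with totals of known miRNAs. Sharing that seed, miR-107 was at 109.9 ± 10.9 in NC and 146 ± 16.1 in circSOD2-sh (SD, n = 4), with a log2 fold change of 0.41 (adjusted p = 0.0104 in edgeR). This call was lost in 6 of the 8 fits without a single library, with totals of known miRNAs, at 0.06 (adjusted p = 0.628 in edgeR), and without NC replicate 4 and circSOD2-sh replicate 2, at 0.18 (adjusted p = 0.134 in edgeR). The seed AGCAGCA is also that of miR-6838-5p, which had at most 1 count in any library and was not tested.

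The profile of miR-16-5p over the 8 libraries was compared with those of known miRNAs outside the lists used here with a mean of at least 50 counts. The measure was the root mean square difference of log2 normalized CPM plus 1, each centred on its own mean. The nearest were let-7e-5p at 0.0423, miR-27a-3p at 0.0572 and let-7b-5p at 0.0681. Their log2 fold changes were -0.65, -0.61 and -0.52 with TMM and 0.31, 0.35 and 0.45 with library totals. For miR-424-5p the nearest were miR-24-2-5p at 0.0609, miR-96-5p at 0.0787 and miR-181d-5p at 0.0800, with log2 fold changes of -0.56, -0.49 and -0.40 with TMM and 0.40, 0.47 and 0.56 with library totals.

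The circle itself was searched for matches to the family seeds. The study describes circSOD2 as exons 5, 6 and 7 of SOD2, and these exons of the transcript SOD2-215 (GENCODE release 29, minus strand of chromosome 6) have 117, 180 and 165 bases. Their joined length of 462 bases is that of the circle. The joined exons and the back-splice junction were searched for the reverse complement of the seed AGCAGCA (bases 2 to 8), which is TGCTGCT. It occurred 1 time, in exon 6 at chr6:159684888-159684894, shown in capitals.
circSOD2 exon 6: ttacaaatTGCTGCTtgtccaaa
The same 7 letters occurred in 10.4% of 19501 windows of this length, each from the middle of the longest transcript of a protein-coding gene. Bases 2 to 7 of miR-503-5p match at the same place, as GCTGCT, which 26.1% of the windows hold, and its bases 2 to 8 (CGCTGCT) had no match. The seeds of miR-15b-3p, miR-16-2-3p and miR-424-3p had none for bases 2 to 7, which 9.78% (TGATTC), 9.28% (ATATTG) and 4.05% (CGTTTT) of windows hold. The match is the same for every member with the seed AGCAGCA, and it is a description of letters and not of binding.

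Library preparation and read processing cannot be told apart from the groups in this design, because the labels give no batch, and of the totals behind the deposited CPM the listed counts made up 93.3% to 93.9% in NC but 83.7% to 85.7% in circSOD2-sh. A count of 0 allows up to 3 counts, or between 0.46 and 0.674 normalized CPM over the 8 libraries, for counting error only, since PCR copies molecules and its reads are not independent.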

How the data were processed

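Small RNA of 4 NC and 4 circSOD2-sh libraries of 786-O cells was analysed. The authors deposited raw counts per mature miRNA without normalization, and CPM computed by the authors over totals larger than the listed counts. Each of 24896 CPM values was the count over 1 total per library, within 0.01 or 0.02%. A table of the authors' own comparison holds mean CPM, log2 fold changes, p-values and calls and was not used. The submitters' processing notes name FastQC 0.11.2, Trimmomatic 0.36, Bowtie 1.1.1 and GRCh38. The counting tool, the miRNA annotation and the tool that predicted miRNAs are not given in the sources used here.

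The whole count table went into edgeR 4.0.16 under R 4.3.3 (filterByExpr with a minimum count of 10, TMM, quasi-likelihood test, prior count of 0.125, Benjamini-Hochberg adjustment, threshold 0.05). Arm ratios were tested with limma 3.58.1 and member ratios, on counts plus 0.5, by exact permutation. DESeq2 1.42.0, other scalings, filters and pseudocounts, a replicate block and fits without single libraries were the alternatives. The members and lists were chosen with earlier results of these data known. Named are the members, the other arms of their hairpins, products of neighbouring hairpins on the X chromosome, miRNAs of a shared or shifted seed, markers, the predicted miRNA with the most counts and the 3 nearest profiles to miR-16-5p and to miR-424-5p. Other tables and plots were made with Python 3.11.15, scipy 1.17.1, pandas 2.3.3 and matplotlib 3.10.9.

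The scripts were first tested on simulated data. Pairs of libraries within a group differed by a chi-square per degree of freedom of 9.45 to 128, so none was a copy of another.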

Additional observations from a re-analysis of the deposited data

Results flagged for a closer look

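Within each group of 4 libraries, the gap between the highest or lowest library and the nearest other was divided by the range of the group, and 15 of 86 groups examined, over 43 measures, exceeded the critical value of Dixon's ratio. Chance gives about 1 in 20 groups, and measures of the same library are not independent. In 8 of the 15 the library apart was NC replicate 4 and in 7 it was circSOD2-sh replicate 2.

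For the family, miR-16-5p was at 6382 normalized CPM in circSOD2-sh replicate 2 against 5166 to 5310 in replicates 1, 3 and 4. The sum of the members of the 5p arm without miR-15b-5p was 6666 there against 5379 to 5520, and miR-15a-5p was at 2.87% of miR-15b-5p against 0.788% to 0.894%. In NC replicate 4, miR-15a-3p was at 8.08 normalized CPM against 4.75 to 4.94, and the ratio of the arms of miR-15a was 19.4 against 34.1 to 35.4.

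Among markers of other cells in NC replicate 4, summed normalized CPM were 557 for smooth muscle and stroma against 7.38 to 8.69, 650.1 for endothelium against 334 to 348, 47.4 for striated muscle against 9.37 to 15.7, and 170.7 for erythroid cells against 26.7 to 42.6. They were 17.1 for leukocytes against 1.19 to 1.9995 and 1064 for kidney tubule against 375 to 399. The striated muscle markers did not all go the same way. In NC replicate 4 miR-206, miR-133a-3p and miR-133b were the highest of the NC libraries. There miR-1-3p was the lowest, at 6.74 against 7.50 to 11.5 in the other NC libraries. In circSOD2-sh replicate 2 the sums were 4351 for neural cells against 35.8 to 46.3, 228 for smooth muscle and stroma against 8.00 to 13.4, 511 for endothelium against 262 to 290.01, and 14.6 for leukocytes against 2.13 to 3.21. What part RNA of other cells had in the values of the family was not tested.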

How the results depend on the processing

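The number of family members called, 7 of 10, was between 5 and 10 under all alternatives and between 7 and 9 without single libraries. Directions moved with the scaling. The 4 arm ratios were called in each alternative that could be run for them. The 4 member ratios had separate groups with 5 counts added as well, while leaving libraries out cannot make separate groups overlap and so tests nothing there. Of the 895 miRNAs tested 588 were called, between 537 and 661 without single libraries. On the same 895 miRNAs the count was 771 with library totals, 730 with upper-quartile factors, 722 and 716 with limma on CPM plus 1 and plus 0.1, 616 with totals of known miRNAs, 593 with RLE size factors and 572 with DESeq2. With a mean of at least 50 counts 361 of 502 were called and with known miRNAs only 246 of 463, where fewer miRNAs were tested. Of arm ratios, 68 of 117 were called, 63 to 71 without single libraries, and 43 of 67 with a mean of at least 50 counts in both arms. That filter leaves out miR-424-3p and miR-195-3p, so the ratios of miR-424 and miR-195 have no value there. DESeq2 gave no adjusted p for 11 miRNAs, none of them named here with a fold change.

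The scalings that shift the median of all miRNAs upward turned small negative log2 fold changes positive. With library totals the values were 0.34 for miR-15a-5p, 0.83 for miR-15b-3p, 0.38 for miR-16-5p, 0.55 for miR-195-5p, 0.42 for miR-424-5p, 0.41 for miR-503-5p, 0.25 for miR-450a-5p and 0.71 for miR-450b-5p. They were 0.31 for let-7e-5p, 0.35 for miR-27a-3p, 0.45 for let-7b-5p, 0.40 for miR-24-2-5p, 0.47 for miR-96-5p and 0.56 for miR-181d-5p. With upper-quartile factors, in the same order, they were 0.21, 0.71, 0.25, 0.43, 0.30, 0.29, 0.14, 0.59, 0.19, 0.23, 0.32, 0.28, 0.34 and 0.43. With limma on log2 of the deposited CPM plus 1, which understates changes of low values, they were 0.19, 0.68, 0.24, 0.38, 0.28, 0.26, 0.11, 0.56, 0.17, 0.21, 0.30, 0.26, 0.32 and 0.41. With limma on CPM plus 0.1 they were 0.19, 0.69, 0.24, 0.38, 0.28, 0.28, 0.11, 0.57, 0.17, 0.21, 0.31, 0.26, 0.32 and 0.42. With totals of known miRNAs, which shift the median downward, miR-16-2-3p was at -0.11 and miR-16-1-3p at -0.28. The value of miR-16-1-3p, 0.08 with TMM (adjusted p = 0.806 in edgeR), lay between -0.24 and 0.13 without single libraries, negative without NC replicate 2, circSOD2-sh replicate 2 or circSOD2-sh replicate 3, and was -0.21 without NC replicate 4 and circSOD2-sh replicate 2. It was called higher with library totals, at 1.03 (adjusted p = 0.0036 in edgeR), and with upper-quartile factors, at 0.91 (adjusted p = 0.00851 in edgeR).

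The groups share replicate numbers. Deviations from the group means correlated between libraries of the same number at 0.26, -0.0994, 0.0965 and -0.174, and 4 of 8 libraries correlated best with their own number, so the numbers are not used as pairs. With a replicate block 574 miRNAs, 7 family members and 64 arm ratios were called. Depth limits the scarce arms, with 5 to 12 counts of miR-195-3p in each NC library.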
